A study of Mus musculus with 36 samples.

Results

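The genes described here are 33 genes of ribosome biogenesis and the nucleolus, out of 18193 genes that the arrays measured with a probe set carrying a single gene symbol. The members were chosen by symbol, and each gene was read from the probe set with the highest mean over the 36 arrays. All 33 had such a probe set, and all 33 were among the 14495 genes tested. For 32 of the 33 that probe set lay above the pooled median in all 36 arrays, and for Rrp12 it did so in 20.

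Ribosomes are made in the nucleolus. RNA polymerase I transcribes the ribosomal RNA precursor there, small nucleolar ribonucleoproteins (snoRNPs) guide its chemical modification and cleavage, and assembly factors build the small and the large ribosomal subunits before they are exported. The process takes up much of a growing cell's resources and its genes are known to be active in dividing cells. In the thymus, epithelial cells support and select developing T cells, dendritic cells present antigens to them, and fibroblasts form the capsule and the connective tissue.

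Samples were 36 arrays of RNA from 6 sorted cell populations of the thymus of male wild-type C57BL/6J mice. Epithelial cells were sorted as cortical (cTEC) or medullary, the latter with low (mTEClo) or high (mTEChi) CD80 and MHC-II. Dendritic cells (DC) were sorted as Sirpa- and Sirpa+, and fibroblasts formed the sixth population. Mice were 1 month, 3 months or 6 months old. Every combination of population and age had 2 arrays, so that a population had 6 arrays and there were 18 groups. The labels name no treatment. They name 1 mouse per sample, whereas the design text speaks of 2 mice per age, and p-values may then reflect the spread of samples from the same animals.

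Values were log2 signals, so a difference of 1 is a 2-fold difference. Array medians ran from 5.61 to 5.75, and precision is limited by having 2 arrays per group. For each population except mTEClo a marker that was highest there is given first. Psmb11, a proteasome subunit of cortical epithelium, averaged 10.96 in cTEC and at most 6.80 elsewhere. Aire, the medullary regulator of tissue antigens, averaged 11.19 in mTEChi, and Sirpa averaged 10.21 in Sirpa+ DC. The chemokine receptor gene Xcr1 averaged 9.20 in Sirpa- DC and the growth factor receptor gene Pdgfra 10.62 in fibroblasts. Some other markers were less distinct. The cTEC marker Foxn1 averaged 9.37 in cTEC and 9.64 in mTEChi. Krt5 and Krt14, highest in mTEClo (12.71 and 11.88), averaged 11.48 and 10.38 in cTEC against 10.85 and 10.10 in mTEChi. The fibroblast markers Pdgfrb and Dcn averaged 9.95 in mTEChi and 11.76 in cTEC, and the macrophage marker C1qa 11.80 in Sirpa+ DC. The fibroblast arrays also carried thymocyte markers. All 13 measured ones, such as Cd3e with a mean of 9.08, lay above the pooled median of 5.66 at each age. The same held in cTEC at 1 and 6 months and in Sirpa+ DC at 1 and 3 months. In the other groups 5 to 12 did. The mean of the 13 was 9.31 to 10.57 in fibroblasts by age, and at most 8.27 in another group (cTEC at 1 month). RNA came from sorted cells in bulk, so that fewer cells of a type and less RNA per cell cannot be told apart.

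The promoters of the members were searched for CACGTG, the E-box letters read the same on both strands that Myc and related factors are known to recognise. Windows of 300 bases from RefSeq (GRCm38.p6), from 250 bases before the gene start to 50 after it, were found for 28 of the 33 members, some with several windows. The letters were present in a window of 7 of the 28 members (25%), namely Wdr43, Tsr1, Ltv1, Pes1, Nop2, Nle1 and Mybbp1a, against 2187 of all 27025 genes in the table (8.09%), counted the same way. In 6 of the 7 the motif started after the gene start, at position 2 in Pes1 and 40 in Mybbp1a, and in Nop2 it started 60 bases before. Of the 7, the members with the most calls between ages had 2 each, and the first 3 of them by name are shown. They lie on the plus strand at chr11:72441077-72441376 (Mybbp1a), chr11:3963725-3964024 (Pes1) and chr11:74897830-74898129 (Tsr1), and capitals mark the motif. A match describes these letters only.
Mybbp1a: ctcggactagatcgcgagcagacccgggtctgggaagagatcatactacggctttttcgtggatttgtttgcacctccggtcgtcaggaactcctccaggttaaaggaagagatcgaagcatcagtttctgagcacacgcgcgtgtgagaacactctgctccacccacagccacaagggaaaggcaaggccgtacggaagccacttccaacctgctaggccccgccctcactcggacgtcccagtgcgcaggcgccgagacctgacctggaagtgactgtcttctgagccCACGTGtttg
Pes1: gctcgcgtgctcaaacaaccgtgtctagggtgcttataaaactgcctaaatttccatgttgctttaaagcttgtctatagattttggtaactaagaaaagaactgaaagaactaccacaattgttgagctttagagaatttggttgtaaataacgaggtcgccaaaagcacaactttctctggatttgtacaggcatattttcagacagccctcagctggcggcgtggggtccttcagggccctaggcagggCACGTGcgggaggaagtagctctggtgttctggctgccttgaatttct
Tsr1: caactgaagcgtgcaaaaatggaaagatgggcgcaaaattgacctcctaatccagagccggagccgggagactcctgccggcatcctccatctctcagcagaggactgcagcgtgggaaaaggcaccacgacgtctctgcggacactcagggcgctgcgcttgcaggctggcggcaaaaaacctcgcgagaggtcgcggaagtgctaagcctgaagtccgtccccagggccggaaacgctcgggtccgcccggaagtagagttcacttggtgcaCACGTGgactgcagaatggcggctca

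The first question was whether the populations differ in these genes. Differences between populations were small. A gene was called between populations at an adjusted p under 0.05 and a difference of at least 2-fold in the linear model fitted with limma. Under this rule the calls were Pes1 in Sirpa- DC, Wdr12 in fibroblasts, and Pes1 between the epithelial and the dendritic populations. The range of the 6 population means of a gene ran from 0.32 (Nop2 and Rrp9) to 1.53 (Wdr12). The highest mean lay in Sirpa- DC for 17 of the 33 genes, in fibroblasts for 10, in mTEClo for 4 and in Sirpa+ DC for 2. The lowest mean lay in cTEC for 12, in mTEChi for 11, in Sirpa+ DC for 7, in fibroblasts for 2 and in mTEClo for 1.

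Pes1 encodes a scaffold of the PeBoW complex, which is needed to process the RNA of the large subunit. Its log2 signal in Sirpa- DC was 9.26 and 9.21 at 1 month, 8.98 and 9.18 at 3 months, and 9.57 and 9.49 at 6 months. In Sirpa+ DC it was 8.61, 8.75, 8.79, 8.50, 9.05 and 8.60 in the same order. The highest array of the other populations was 8.88 in fibroblasts, 8.53 in mTEClo, 8.19 in cTEC and 8.18 in mTEChi. Only the highest Sirpa+ array, at 9.05, reached the range of the Sirpa- arrays. The mean was 9.28 ± 0.22 (SD, n = 6) in Sirpa- DC against 8.14 over the other 5 populations, a difference of 1.14 ± 0.10 (SE; 2.20-fold; adjusted p 5.34e-10). The 3 epithelial populations averaged 7.87 against 9.0 in both DC populations, a difference of -1.13 ± 0.09 (adjusted p 9.34e-12). The other probe set of Pes1 gave -0.20 for Sirpa- DC and 0.58 for epithelial cells against DC, so that the 2 probe sets disagreed in sign.

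Wdr12 and Bop1 are the partners of Pes1 in the PeBoW complex. Wdr12 averaged 8.96 ± 0.55 (SD, n = 6) in fibroblasts, 8.59 in Sirpa- DC, 8.28 in Sirpa+ DC, 7.81 in cTEC, 7.67 in mTEChi and 7.43 in mTEClo. The fibroblast arrays read 8.01 and 8.80 at 1 month, 8.88 and 9.18 at 3 months, and 9.30 and 9.59 at 6 months. Sirpa- DC ranged from 8.43 to 8.83, so that 1 array at 1 month lay below that range, the other within it, and the 4 older ones above it. Fibroblasts exceeded the mean of the other 5 by 1.00 ± 0.10 (2.00-fold, adjusted p 2.02e-09), and another probe set gave 1.94 ± 0.13 and was called. The call lies at the 2-fold threshold: it was lost after quantile normalization, where the difference was 0.90, and in 16 of the 36 fits that left out 1 array, 3 of them without a fibroblast array. Bop1 varied less, from 7.40 in cTEC to 7.98 in Sirpa- DC.

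Over all members, the share called at 2-fold was read against all genes tested. In Sirpa- DC 1 of 33 was called higher, where 6.2% of all genes were, and in fibroblasts 1 of 33, where 8.38% were. Between epithelial cells and DC 1 of 33 was lower, where 8.6% were. None was called in cTEC, mTEClo, mTEChi or Sirpa+ DC against the mean of the other 5, where 16.1%, 14.8%, 19.2% and 16.9% of all genes were called in either direction. At an unadjusted p under 0.05 in limma, 18, 13, 18 and 14 members differed in these 4 comparisons. None was called between mTEChi and mTEClo (19.6% of all genes, 14 members at an unadjusted p under 0.05) or between Sirpa+ and Sirpa- DC (5.37%, 21 members). No share of all genes at an unadjusted p is given, here or below. The percentages follow the rule for calls and are no background for these looser counts.

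Without a minimum fold, the members of Sirpa- DC were on the high side. There 20 of 33 were higher than in the mean of the other 5, against 28.6% of all genes, and the median difference was 0.28 against -0.03 over all genes. Fbl, the methyltransferase of the box C/D snoRNPs, was higher by 0.76 ± 0.08, Nhp2, a core protein of the box H/ACA snoRNPs, by 0.62 ± 0.09, and the helicase gene Ddx21 by 0.59 ± 0.08. By role, all 3 box H/ACA genes, both large RNA polymerase I subunits (Polr1a by 0.48 and Polr1b by 0.46) and 8 of 11 large subunit factors were among the 20. Of the multifunctional nucleolar proteins Npm1 differed by 0.03, Ncl by -0.12 and Mybbp1a by -0.03, and none of these 3 was called. The Sirpa- DC also stood high in mitosis genes, of which 16 of 29 were called at least 2-fold higher with a median of 1.09, and the part of cell division in the member levels was not tested.

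Sirpa+ DC were lower than Sirpa- DC in 31 of 33 members, with a median difference of -0.31 against 0 over all genes. Without a minimum fold 14 members were lower, against 9.29% of all genes. They included Pes1 by -0.57 ± 0.13, Nop58, a core protein of box C/D snoRNPs, by -0.55 ± 0.12, and Polr1a by -0.54 ± 0.13. The exceptions in sign were Heatr1 (0.24) and Nop16 (0.13), both with an adjusted p above 0.05. Against the mean of the other 5, Sirpa+ DC had 6 members higher (26.2% of all genes) and 8 lower (34.5%).

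Among epithelial cells, cTEC and mTEChi were on the low side. In cTEC 16 members were lower (35.3% of all genes) and Rrs1 alone was higher (29.5%). In mTEChi 18 were lower (34.8%), in mTEClo 5 were higher (28%) and 6 lower (25.7%), and mTEChi lay below mTEClo in 11 (29.4%). Against both DC populations, the mean of the epithelial ones was lower in 21 members (36.1%), among them Wdr12 by -0.80 ± 0.08, Nop16 by -0.77 ± 0.09 and Fbl by -0.74 ± 0.07. It was higher in 3 (39.8%), namely Ncl, Rrs1 and Mybbp1a. Fibroblasts had 11 members higher (30.8%) and 4 lower (35.5%). The counts of lower members in cTEC, in mTEChi against the mean of the other 5, and in epithelial cells against DC are shares above the background. That excess was not tested. The other counts are shares near the background or below it.

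**Figure D1:**
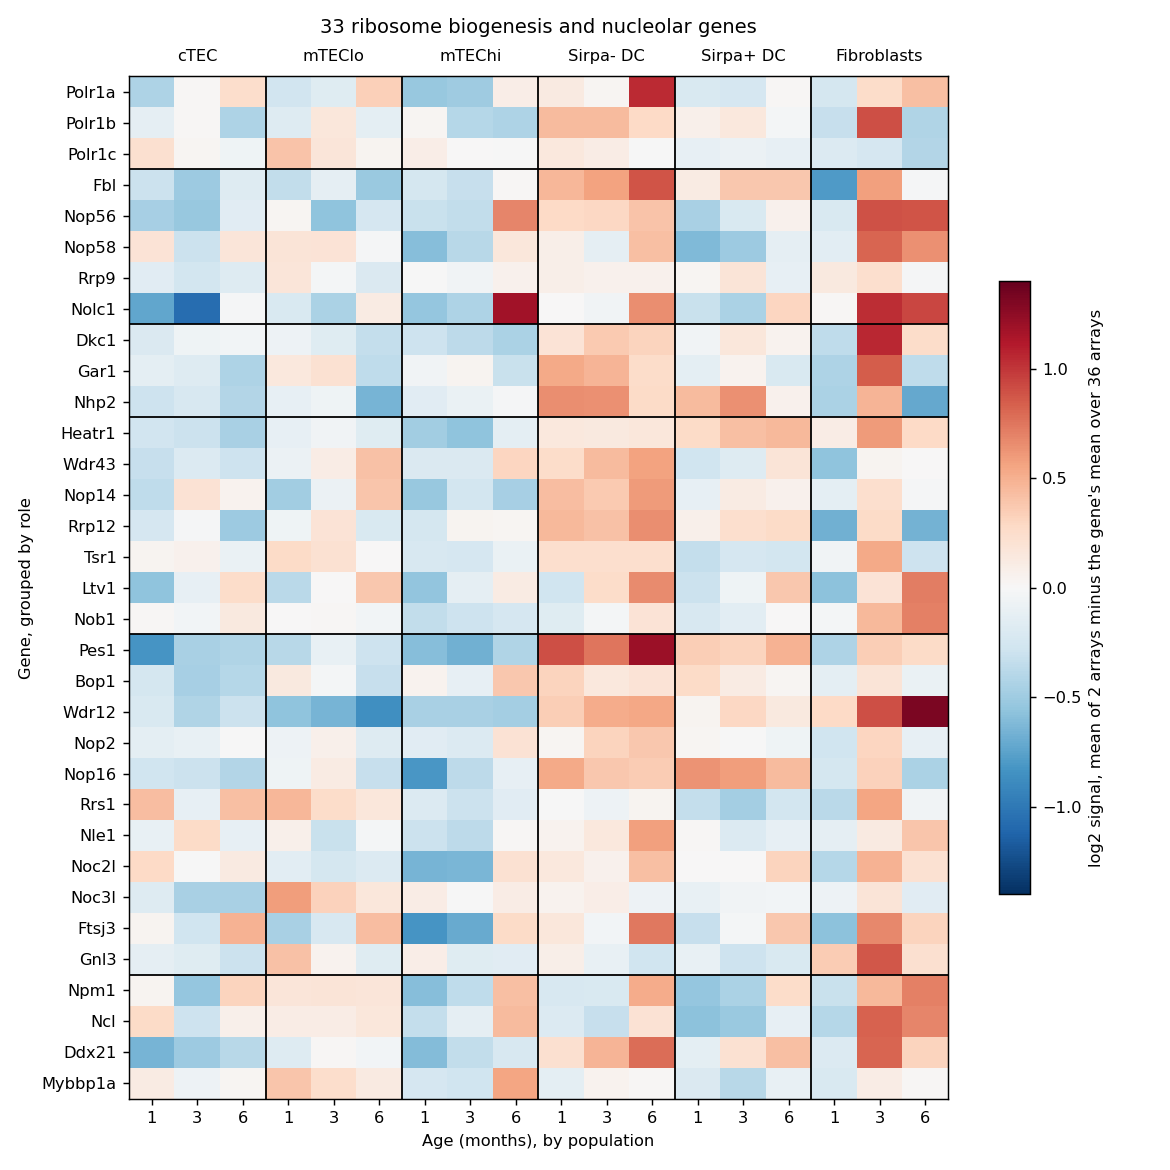
Each row is 1 of the 33 genes, grouped by role, and each column 1 of the 18 groups of 2 arrays; colour gives the group's mean log2 signal minus the gene's mean over all groups. Fibroblasts at 3 months stand out with most box C/D and H/ACA genes high, and the Pes1 row is high in the Sirpa- DC columns.

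The second question was how the genes change between 1, 3 and 6 months within a population. A gene was called between ages at an adjusted p under 0.05, with 2 arrays against 2 and the spread taken from all groups. Over the 18 such comparisons, 28 of the 33 members had at least 1 call, as did 57.7% of all genes. For 19 of the 33 members all age calls were in fibroblasts, against 31.7% of all genes tested. Another 9 of the 33 had a call in another population, a share near the 26% of all genes. The 5 members with no age call in any population were Polr1c, a subunit that RNA polymerases I and III share, Rrp9 of the U3 snoRNP, Heatr1, Bop1 and Noc3l.

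Fibroblasts at 3 months had 20 of 33 members higher than at 1 month and none lower, where 10.1% of all genes were called higher. In all, 32 of 33 differences were positive, with a median of 0.76 against -0.02 over all genes. The calls covered all 3 box H/ACA genes, 4 of 5 box C/D and U3 genes, 3 of 4 multifunctional nucleolar proteins, 6 of 11 large subunit factors, 3 of 7 small subunit factors and 1 of 3 polymerase subunits. Leaving out the first array at 1 month or the second at 3 months each left 10 calls, and a fit of only these 4 arrays called 10.

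Dkc1 encodes the pseudouridine synthase of the box H/ACA snoRNPs. Its log2 signal in fibroblasts was 9.05 and 9.32 at 1 month, 10.51 and 10.69 at 3 months, and 9.76 and 9.84 at 6 months. The ages did not overlap, and the 3-month pair was the highest. The increase from 1 to 3 months was 1.41 ± 0.20 (adjusted p 2.39e-05), and from 3 to 6 months the signal fell by 0.80 on the log2 scale (adjusted p 0.00703). Its partner Gar1 read 9.88 and 8.93, then 10.65 and 10.72, then 9.43 and 9.53. The arrays at 1 and 6 months overlapped while those at 3 months lay above both, with an increase of 1.28 ± 0.25 (adjusted p 0.000875) to 3 months and a difference of -1.21 ± 0.25 (adjusted p 0.00206) from 3 to 6. Nhp2, the third box H/ACA member, followed the same course, with 0.91 ± 0.21 and then -1.19 ± 0.21.

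Fbl read 9.44 and 9.59 at 1 month, 10.79 and 10.97 at 3 months, and 10.08 and 10.49 at 6 months. Its increase to 3 months was 1.36 ± 0.19 (adjusted p 2.32e-05), and 0.77 ± 0.19 of it was still present at 6 months against 1 month. Its core partners Nop56 and Nop58 rose by 1.10 ± 0.24 and 0.96 ± 0.21, and Nolc1, a phosphoprotein that escorts snoRNPs, by 1.02 ± 0.28. Nop56 read 8.65 and 8.48, then 9.48 and 9.86, then 9.41 and 9.90, so that the 3- and 6-month pairs overlapped and both lay above 1 month. Rrp9 differed by 0.11 and was not called.

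Of the polymerase subunits, Polr1b rose by 1.23 ± 0.22 from 1 to 3 months and fell by 1.33 on the log2 scale to 6 months (adjusted p 0.000273 and 0.000214). Its arrays were 6.17 and 6.23, then 7.52 and 7.33, then 6.23 and 5.97, with 3 months apart from both other ages. Polr1a differed by 0.51 ± 0.23 (adjusted p 0.124) to 3 months and Polr1c by -0.04.

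The factors of the small subunit that were called at 3 months were Rrp12, which acts in export of its precursor (0.95 ± 0.26), Wdr43 (0.61 ± 0.20) and Tsr1 (0.58 ± 0.19). Ltv1, Heatr1, Nob1 (the nuclease of the last cleavage) and Nop14 were positive but not called, with 0.76, 0.49, 0.47 and 0.37. Those of the large subunit were Ftsj3 (1.25 ± 0.22), Rrs1 (0.93 ± 0.21), Noc2l (0.90 ± 0.23), Pes1 (0.77 ± 0.23), Wdr12 (0.63 ± 0.22) and the methyltransferase gene Nop2 (0.58 ± 0.19). Nop16, Gnl3 (nucleostemin), Bop1, Nle1 and Noc3l lay between 0.25 and 0.57 without a call. Ncl, nucleolin, read 10.72 and 11.22, then 12.29 and 12.09, then 12 and 12.11, with an increase of 1.22 ± 0.19 (adjusted p 6.57e-05) to 3 months. Ddx21 rose by 1.00 ± 0.19 and Npm1, nucleophosmin, by 0.76 ± 0.17, while Mybbp1a differed by 0.31 and was not called. Of 18 further probe sets of these called genes, 18 had the same sign and 14 were called.

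**Figure D2:**
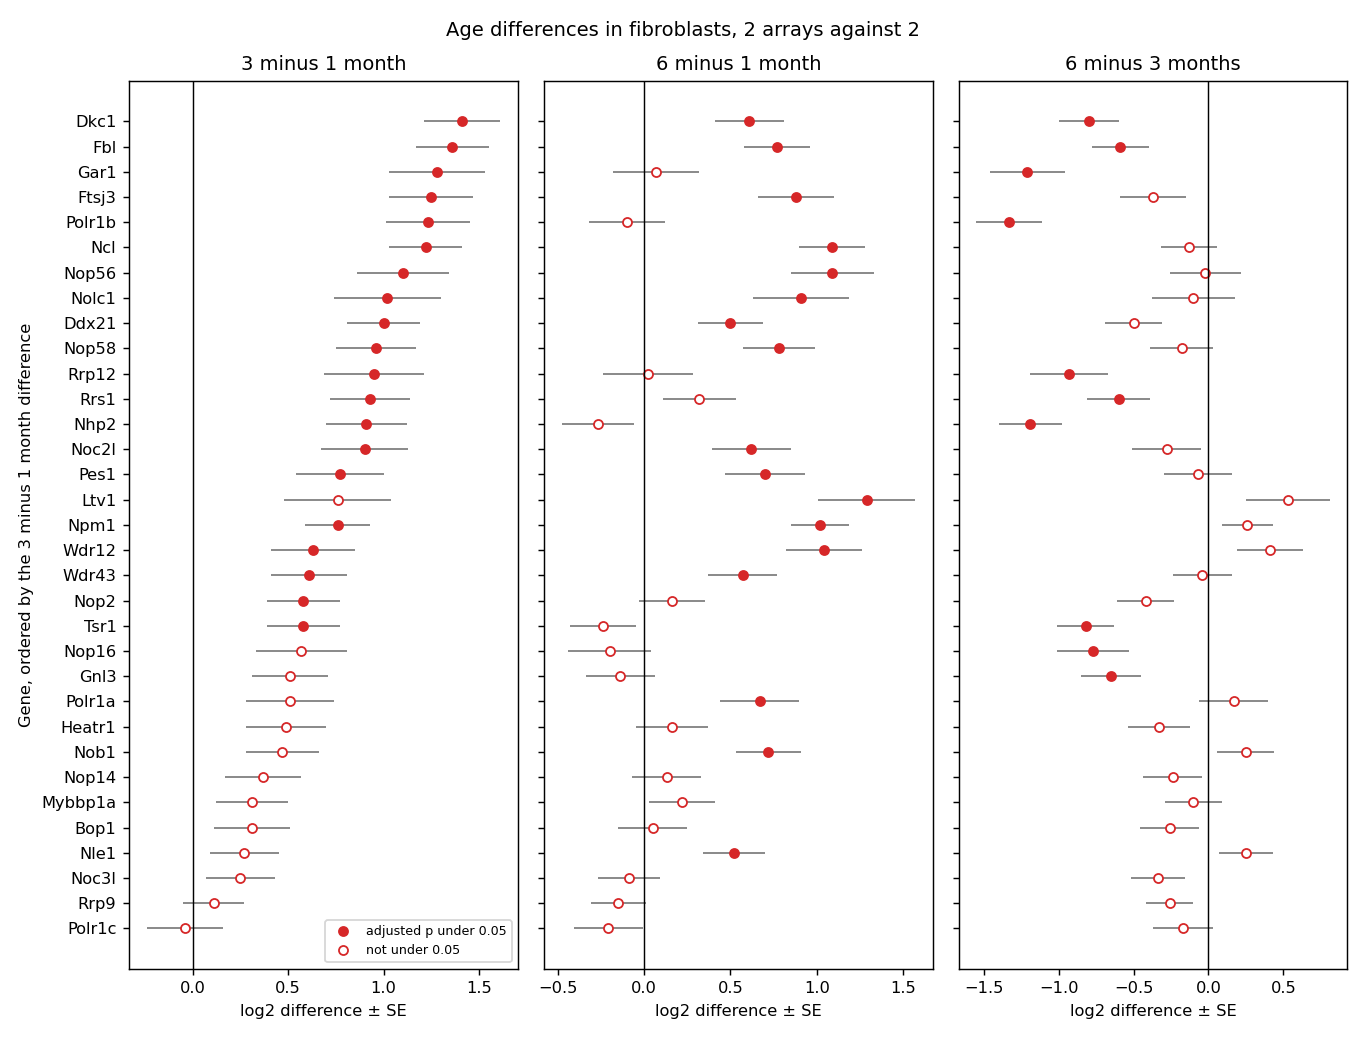
Points give the log2 difference ± SE between ages in fibroblasts (2 arrays against 2) for each of the 33 genes, ordered by the difference from 1 to 3 months; filled points have an adjusted p under 0.05. In the left panel 32 of 33 points lie right of 0, and in the right panel Polr1b, Gar1 and Nhp2 lie farthest to the left.

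At 6 months fibroblasts still had 17 members higher than at 1 month and none lower (15.8% of all genes were higher), and 13 of them were also called at 3 months. The 4 others were Ltv1, Nob1, Polr1a and Nle1. Ltv1, an export factor of the small subunit, read 7.60 and 7.22 at 1 month, 7.81 and 8.54 at 3 months, and 8.54 and 8.86 at 6 months. Its difference from 1 to 6 months was 1.29 ± 0.28 (adjusted p 0.00108). Nop56 and Ncl were higher by 1.09 each (adjusted p 0.00102 and 0.000112). Npm1 was higher by 1.02 ± 0.17 (adjusted p 7.55e-05), and its probe set read 11.46 and 11.79 at 1 month against 12.61 and 12.69 at 6 months. This count was 5 without the second array at 6 months, 7 without the first at 1 month and 0 in a fit of only the 4 arrays compared. The other probe set of Pes1 gave -0.83 here against the 0.70 of the one used. The 2 fibroblast arrays at 6 months correlated at 0.958 over the genes tested, lower than any group but mTEChi at 6 months (0.949).

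Between 3 and 6 months 10 members fell in fibroblasts (9.24% of all genes) and none rose. They were all 3 box H/ACA genes, Polr1b, Rrp12 (-0.93), Tsr1 (-0.82), Nop16 (-0.77), Gnl3 (-0.65), Rrs1 (-0.60) and Fbl (-0.59). In all, 8 of the members called at 3 months against 1 month were among them. The count fell to 3 without the second array at 3 months, to 5 or 6 without 1 of the other 3 arrays compared, and to 0 in a fit of only these 4 arrays.

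The change in fibroblasts was then compared with the mean change of the other 5 populations, a test added after seeing the data. From 1 to 3 months 15 members rose more in fibroblasts (9.94% of all genes), and the difference of changes was positive for all 33 with a median of 0.69 against 0.01 over all genes. The largest were Dkc1 (1.34), Ncl (1.31) and Fbl (1.30). From 1 to 6 months 6 members rose more (10.8%), and from 3 to 6 months 6 fell more (3.07%). Leaving out the first fibroblast array at 1 month gave 9 and 0 for the first 2 counts. The second was 1 without the second fibroblast array at 6 months and 3 without the second Sirpa+ array at 6 months. The last was 0 without the first fibroblast array at 3 months, 1 without the second array at 3 or at 6 months, 3 without the first array at 6 months and 10 without the second mTEChi array at 6 months. The first 2 comparisons share their 1-month arrays.

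Other genes of the pathway were read from lists that hold none of these members. Of genes measured and tested, 13 of 30 of the small subunit processome rose in fibroblasts from 1 to 3 months (median 0.49), with Utp18 (1.07), Wdr36 (1.02), Wdr75 (1.01) and Utp6 (0.99) the largest. For large subunit assembly 14 of 35 rose (median 0.56), led by Ddx27 (1.52), Rpf2 (1.15), Rrp1b (1.03) and Sdad1 (1.01). The RNA exosome, which trims precursors, had 7 of 11 (median 0.75), with Exosc8 at 1.23. RNA polymerase I and its factors had 3 of 12, namely Taf1d (1.24), Taf1b (0.92) and Rrn3 (0.76), and partners of the snoRNPs 3 of 9, with Ruvbl1 at 0.84. None of the 8 late small subunit factors was called by limma, with 3 at an unadjusted p under 0.05. The share of genes called higher over all genes was the 10.1% given above.

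Of the ribosomal protein genes themselves 3 of 42 rose from 1 to 3 months (median 0.02), namely Rpl14 (0.91), Rps9 (0.85) and Rps6 (0.73), and 13 of 42 from 1 to 6 months (median 0.40). Genes of nucleotide synthesis, which supplies the bases of RNA and DNA, rose in 11 of 14 at 3 months (median 0.89), with Ppat (1.81), Pfas (1.57), Gart (1.48) and Prps1 (1.42). Mitosis genes rose in 27 of 29 (median 1.77), with Ect2 at 2.64, Kif20a at 2.52, Aurkb at 2.49 and Kif11 at 2.48. Their mean over arrays went from 7.90 at 1 month to 9.66 at 3 and 8.66 at 6 months, and the mean of the 33 members from 8.40 to 9.14 and 8.82.

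Other measures of the fibroblast arrays moved with age as well. The mean of the 13 thymocyte markers was 9.31 at 1 month, 10.12 at 3 and 10.57 at 6 months, with 8.61 and 10.02 in the 1-month arrays, 10.14 and 10.09 in the 3-month arrays, and 10.41 and 10.73 in the 6-month arrays. From 1 to 3 months 4 of 13 rose (Ptcra by 2.65, Rag2 by 1.30, Cd3e by 0.97 and Cd4 by 0.79), and from 1 to 6 months 8 of 13. The mean of the 9 fibroblast markers was 12.81, 11.89 and 10.89 at the 3 ages. They include Thy1, which thymocytes also carry and which read 12.47, 12.4 and 12.35. Col1a2 and Col1a1, the chains of type I collagen, fell by 1.52 and 1.29 to 3 months, both on the log2 scale. To 6 months 7 of the 9 fell, with log2 differences of -3.48 for Col1a1, -3.05 for Col1a2, -2.45 for Col3a1 and -2.33 for Lum. The difference between 3′ and 5′ control probe sets, a measure of RNA quality, was 2.76, 2.11 and 1.79 at the 3 ages. With the thymocyte mean as a covariate 16 members were called higher at 3 months, and with the 3′ minus 5′ difference 17, against 20 without. At 6 months the counts were 6 and 10 against 17, and the part of thymocyte RNA in the results was not tested beyond these fits.

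**Figure D3:**
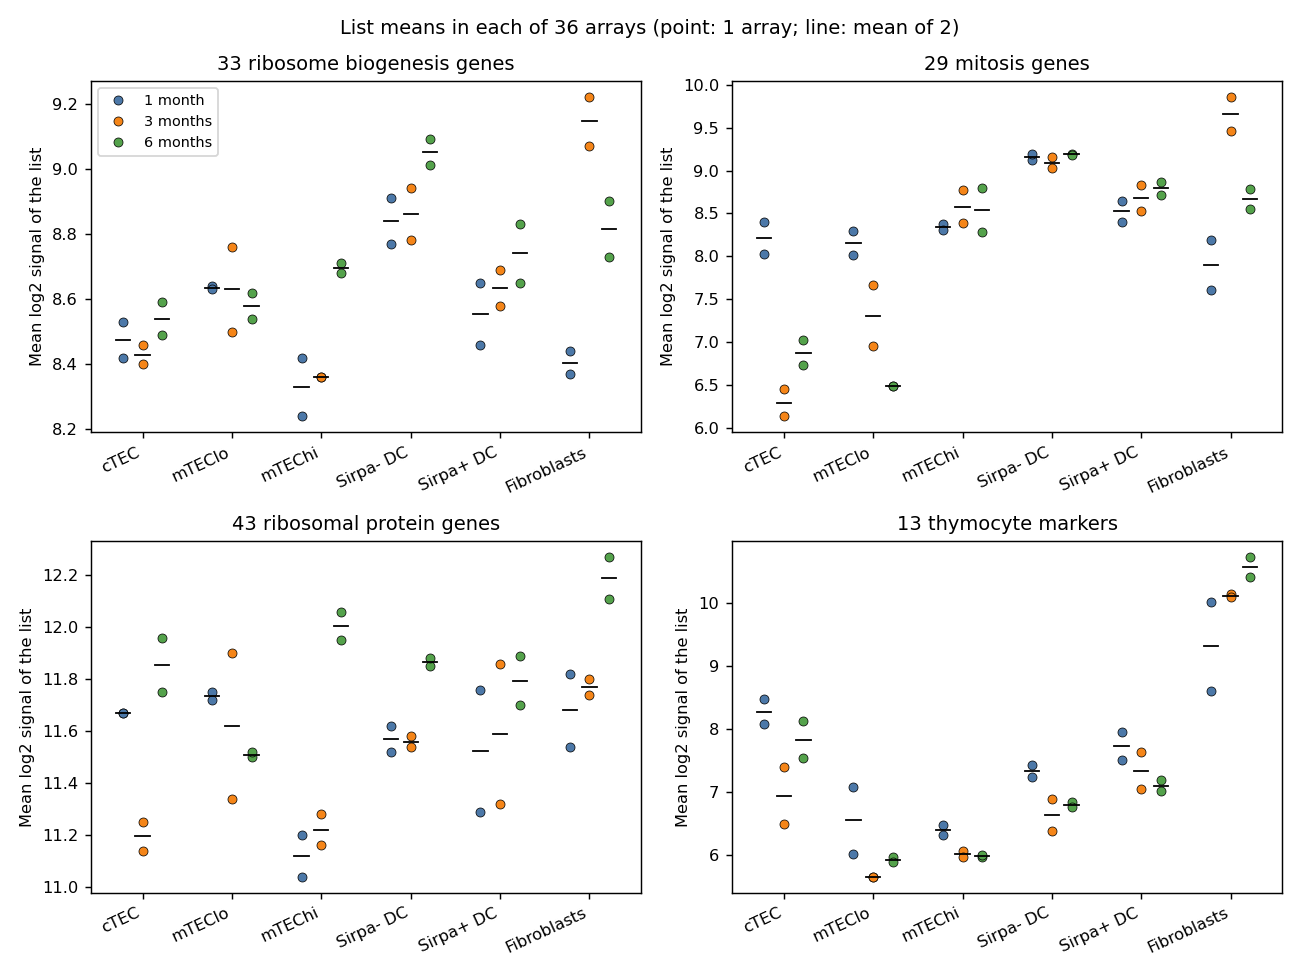
Points give the mean log2 signal of a list in each of the 36 arrays by population and age, and lines the mean of 2 arrays, for the 33 genes, 29 mitosis genes, 43 ribosomal protein genes and 13 thymocyte markers. The fibroblasts have their highest value at 3 months for the members and for mitosis, and at 6 months for ribosomal proteins and thymocyte markers.

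Among mTEChi, which carry Aire, 8 of 33 members were higher at 6 than at 1 month and none lower (6.17% of all genes were higher), with a median of 0.32 against 0.03 over all genes. The calls were in box C/D and U3 genes (3 of 5), the multifunctional nucleolar proteins (3 of 4) and the large subunit (2 of 11), and no box H/ACA, polymerase or small subunit gene was called. Leaving out the second array at 1 month left 2 calls, and leaving out the second at 6 months left 5. The 2 arrays at 6 months correlated at 0.949 over the genes tested, the lowest of the 18 groups. A fit of only the 4 arrays compared called 0.

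Nolc1 read 8.23 and 7.79 at 1 month, 8.19 and 8.04 at 3 months, and 9.40 and 10.05 at 6 months in mTEChi. Both 6-month arrays lay above all others, by 1.72 ± 0.28 against 1 month (adjusted p 0.000462). Its other 2 probe sets gave 1.71 and 0.10, of which the first was called. Ftsj3, a methyltransferase of the large subunit precursor, read 6.41 and 6.00, then 6.29 and 6.36, then 7.15 and 7.44, a difference of 1.09 ± 0.22 (adjusted p 0.00273). Npm1 read 11.38 and 11.31, then 11.63 and 11.55, then 12.68 and 12.05, a difference of 1.02 ± 0.17 (adjusted p 0.000508). In each of these genes the 6-month pair did not overlap with the younger ages.

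The other 5 calls were Nop56 (1.00 ± 0.24), Noc2l (0.86 ± 0.23), Mybbp1a (0.78 ± 0.19), Ncl (0.77 ± 0.19) and Nop58 (0.75 ± 0.21). The other probe set of Noc2l gave -0.52. From 3 to 6 months 6 members rose (5.17%), namely Nolc1 (1.62), Nop56 (1.02), Ftsj3 (0.96), Noc2l (0.86), Mybbp1a (0.83) and Npm1 (0.78). Of 6 other probe sets of these genes, 4 had the same sign and were called. One of Nolc1 gave -0.30 and that of Noc2l -0.33. No member was called from 1 to 3 months, where limma called 0% of all genes and 0 members had an unadjusted p under 0.05. That count from 3 to 6 months was 1 without the second array at 3 months, 2 without the second at 6 months, 3 without the first at 3 months and 0 in a fit of only these 4 arrays. The change from 1 to 6 months exceeded that in mTEClo for Nolc1 (1.39), Nop56 (1.27), Mybbp1a (1.04) and Npm1 (1.03). These were 4 calls against 4.97% of all genes, in a test added after seeing the data. Of 5 other probe sets of these genes, 4 had the same sign and 1, of Npm1 (1.24), was called. Those of Nolc1 gave -0.67 and 0.93, that of Nop56 0.76 and that of Mybbp1a 0.73. In a fit of only the groups compared the count of called members was 0. That count ranged from 0 to 7 over the fits that left out 1 array: it was 0 without the first mTEClo array at 1 month, 7 without the first mTEChi array at 6 months, and 1 or 2 without the other mTEClo arrays at 1 and 6 months, the second mTEChi array at 1 month or the second at 6 months.

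In mTEChi the ribosomal protein genes moved with the members: 30 of 42 rose from 1 to 6 months (median 0.92), with Rps15 (1.63), Rpl27a (1.60), Rps24 (1.46) and Rpl37a (1.45). Of the large subunit assembly list 8 of 35 rose, led by Rsl1d1 (2.24), Nsa2 (2.17), Gnl2 (1.23) and Las1l (1.04). Mitosis genes did not: none of 29 rose and Plk1 fell by 0.98 on the log2 scale. The thymocyte mean was 6.39 at 1 month and 5.98 at 6 months, and none of the 13 markers rose. Macrophage markers had a median difference of 0.62 with none of 7 called, and 2 of 8 medullary epithelial markers rose. The scaling of the arrays bears on this comparison. As deposited, 64.9% of all called genes were higher at 6 months, and after quantile normalization 36.5%. Of the 8 members, 4 were still called after quantile normalization, namely Nolc1 (1.57), Ftsj3 (1.13), Noc2l (0.86) and Nop56 (0.83), while Npm1 (0.41), Mybbp1a (0.54), Nop58 (0.52) and Ncl (0.29) were not. The shares were 65.7% and 40.4% from 3 to 6 months, and 75.8% and 57.7% for the change in mTEChi minus that in mTEClo.

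Changes in the other 4 populations were few. In cTEC Npm1 read 12.05 and 11.92 at 1 month, 11.37 and 11.44 at 3 months, and 12.08 and 12.42 at 6 months. The 3-month pair lay below both other ages, with a difference of -0.59 ± 0.17 from 1 to 3 months (adjusted p 0.0415, 1 member lower against 3.88% of all genes). Over the same step the thymocyte mean in cTEC went from 8.27 to 6.94 and the mean of mitosis genes from 8.21 to 6.29, and at 6 months they were 7.83 and 6.88. Later, from 3 to 6 months, 3 members rose in cTEC (2.74%), namely Nolc1 (1.05 ± 0.28), Npm1 (0.85 ± 0.17) and Ftsj3 (0.77 ± 0.22). With the thymocyte mean as a covariate neither the Npm1 call from 1 to 3 months nor any of these 3 was made. A fit of only the 4 arrays compared called 0 and 1. Beside them 18 of 42 ribosomal protein genes, 6 of 29 mitosis genes and 2 of 13 thymocyte markers rose. After quantile normalization the Npm1 difference from 1 to 3 months was -0.18 and Nolc1 (0.96) was the only call from 3 to 6 months, and 46.5% of all called genes were then higher against 71.4% as deposited. From 1 to 3 months these shares were 42% and 28.2%. The Npm1 call from 1 to 3 months was lost in 14 of the 36 fits that left out 1 array, among them those without any of the 4 arrays compared. The calls from 3 to 6 months were 0 without the first cTEC array at 3 months or the second at 6 months, and 1 without either of the other 2 arrays. Other probe sets of Nolc1 gave -0.03 and 0.80 for this step without a call, and that of Npm1 gave 0.79 and was called. No member was called from 1 to 6 months in cTEC (6.45% of all genes, 4 members at an unadjusted p under 0.05 in limma).

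In mTEClo Nop14, a processome protein, and Ftsj3 were higher at 6 than at 1 month (2.55% of all genes). Nop14 read 6.14 and 6.43 at 1 month, 6.63 and 6.75 at 3 months, and 7.33 and 7.0 at 6 months, a difference of 0.89 ± 0.20 (adjusted p 0.00785). Ftsj3 read 6.38 and 6.77, then 6.91 and 6.71, then 7.51 and 7.41, a difference of 0.88 ± 0.22 (adjusted p 0.0142). In both the 6-month arrays were the highest. These calls were 0 without the first mTEClo array at 1 month or the first at 6 months, and 1 without the second at 6 months. A fit of only the 4 arrays compared called 5 members, and with the 3′ minus 5′ covariate none was called. Mitosis genes fell in 26 of 29 in mTEClo from 1 to 6 months (median -1.62), while the median member differed by -0.16 against -0.09 over all genes. The mean of the members was 8.64 at 1 month and 8.58 at 6 months, and that of mitosis genes 8.15 and 6.48. No member was called from 1 to 3 months (1.77% of all genes) or from 3 to 6 months (2.39%) by limma, with 2 and 6 at an unadjusted p under 0.05. After quantile normalization 54.3% of all genes called from 3 to 6 months were higher, against 66.2% as deposited.

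In the dendritic cells the calls with age were all of Npm1. In Sirpa- DC it read 11.78 and 11.66 at 1 month, 11.62 and 11.84 at 3 months, and 12.47 and 12.45 at 6 months, a difference of 0.74 ± 0.17 from 1 to 6 months (adjusted p 0.0332; 0.538% of all genes). In Sirpa+ DC it read 11.34 and 11.45, then 11.51 and 11.48, then 12.21 and 12.18, which gave 0.79 ± 0.17 against 1 month (adjusted p 0.0118; 1.35%) and 0.70 ± 0.17 against 3 months (adjusted p 0.0377; 0.849%). In both populations the 6-month arrays lay above all younger ones. The call in Sirpa- DC was lost without any 1 of the 4 arrays compared, and 2 members were called in 12 other fits that left out 1 array. Fits of only the 4 arrays compared called 6 members there, and in Sirpa+ DC 2 against 1 month and 0 against 3 months. In Sirpa+ DC the call against 1 month was lost without the first array at 1 month or either at 6 months, and that against 3 months without the first array at 3 months, either at 6 months, or either 6-month array of mTEClo or Sirpa- DC. No member was called from 1 to 3 months in Sirpa- DC (0.0345% of all genes) or Sirpa+ DC (0.331%) by limma, with 0 members at an unadjusted p under 0.05 in each. None was called from 3 to 6 months in Sirpa- DC (0.29%, 7 members at an unadjusted p under 0.05). Macrophage markers in Sirpa- DC had a median difference of 1.80 from 1 to 6 months, with 7 of 7 positive and none called, and their part in the Npm1 result was not tested. After quantile normalization 38.8% of all called genes were higher in Sirpa- DC from 1 to 6 months against 59.5% as deposited, 44.7% against 69% from 3 to 6 and 55.6% against 40% from 1 to 3. In Sirpa+ DC the shares were 44.2% against 65.2% from 1 to 6 and 48.2% against 68.7% from 3 to 6.

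The third question was whether a change with age was shared by the populations. How many donors each age had is not settled, and there may have been only 2. The 12 arrays per age would then not be independent samples, and p-values of means over populations may be too small. In the mean of the 6 populations 15 members were higher at 6 than at 1 month (14.9% of all genes) and 2 lower (21.7%). The median member differed by 0.15 against -0.06 over all genes. By role, 4 of 5 box C/D and U3 genes, 3 of 4 multifunctional nucleolar proteins, 4 of 7 small subunit factors, 3 of 11 large subunit factors and 1 of 3 polymerase subunits were higher. Of the box H/ACA genes Nhp2 was lower. After quantile normalization 15 were called higher and 6 lower. The percentages of all genes given here are as deposited and are no background for these 2 counts. Among all called genes the share that was higher fell under this scaling, as given below. The 3′ minus 5′ difference was lower at 6 than at 1 month in all 6 populations: it went from 2.53 to 2.00 in cTEC, 2.67 to 1.91 in mTEClo, 2.01 to 1.85 in mTEChi, 1.80 to 1.42 in Sirpa- DC, 1.77 to 1.46 in Sirpa+ DC and 2.76 to 1.79 in fibroblasts. With it as a covariate 11 members were called against 17, and its part in the result was not tested further.

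Ltv1 had the largest difference, 0.86 ± 0.12 (adjusted p 5.93e-06). At 1 month its arrays were 7.64 and 7.19 in cTEC, 7.61 and 7.61 in mTEClo, 7.38 and 7.47 in mTEChi, 7.68 and 7.72 in Sirpa- DC, 7.71 and 7.65 in Sirpa+ DC, and 7.60 and 7.22 in fibroblasts. At 6 months they were 8.23 and 8.25, 8.57 and 8.16, 8.47 and 7.73, 8.63 and 8.65, 8.55 and 8.18, and 8.54 and 8.86 in the same order. All 12 arrays at 6 months lay above all 12 at 1 month, the closest being 7.73 in mTEChi against 7.72 in Sirpa- DC. With shared donors these would be fewer than 12 separate observations per age. The gene was positive in 6 of 6 populations at 6 months and at 3 months.

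Nolc1 was higher by 0.82 ± 0.11 (adjusted p 8.81e-06), Ftsj3 by 0.77 ± 0.09 (adjusted p 8.62e-07) and Npm1 by 0.64 ± 0.07 (adjusted p 2.94e-07). Nolc1 and Ftsj3 were positive in 6 of 6 populations and Npm1 in 5, the exception being mTEClo, where its arrays read 12.20 and 12.03 at 1 month and 12.15 and 12.07 at 6 months. Polr1a was higher by 0.62 ± 0.09 and positive in 6 of 6 populations, but its other probe sets that were tested gave 0.09 and 0.13 without a call. Those of Nolc1 gave 0.58 and 1.16, that of Npm1 0.87 and those of Ncl 0.27, 0.33 and 2.00, all called. The remaining calls were Nop56 (0.46), Ncl (0.43), Wdr43 (0.40), Ddx21 (0.40), Nop58 (0.36), Nop14 (0.31), Noc2l (0.31), Pes1 (0.30), Fbl (0.28) and Nob1 (0.25). Other probe sets of Pes1 (-0.45) and Noc2l (-0.49) were called in the opposite direction, and those of Fbl (0.12) and Wdr43 (0.05) were not called. Of 15 other probe sets of all members called in this mean, 12 had the same sign and 8 of these were called.

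The 2 genes that were lower at 6 months were Gnl3 (-0.27 ± 0.08) and Nhp2 (-0.26 ± 0.08). Nhp2 read 10.46 and 10.55 at 1 month and 9.89 and 10.03 at 6 months in mTEClo, and 11.31 and 11.22 against 10.76 and 11 in Sirpa- DC. In mTEChi its 6-month arrays, 10.32 and 10.88, spanned those at 1 month, 10.51 and 10.41. The other probe set of Nhp2 gave 0.41 and was called, so that the probe sets disagree. Gnl3 was positive in 0 of 6 populations.

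**Figure D4:**
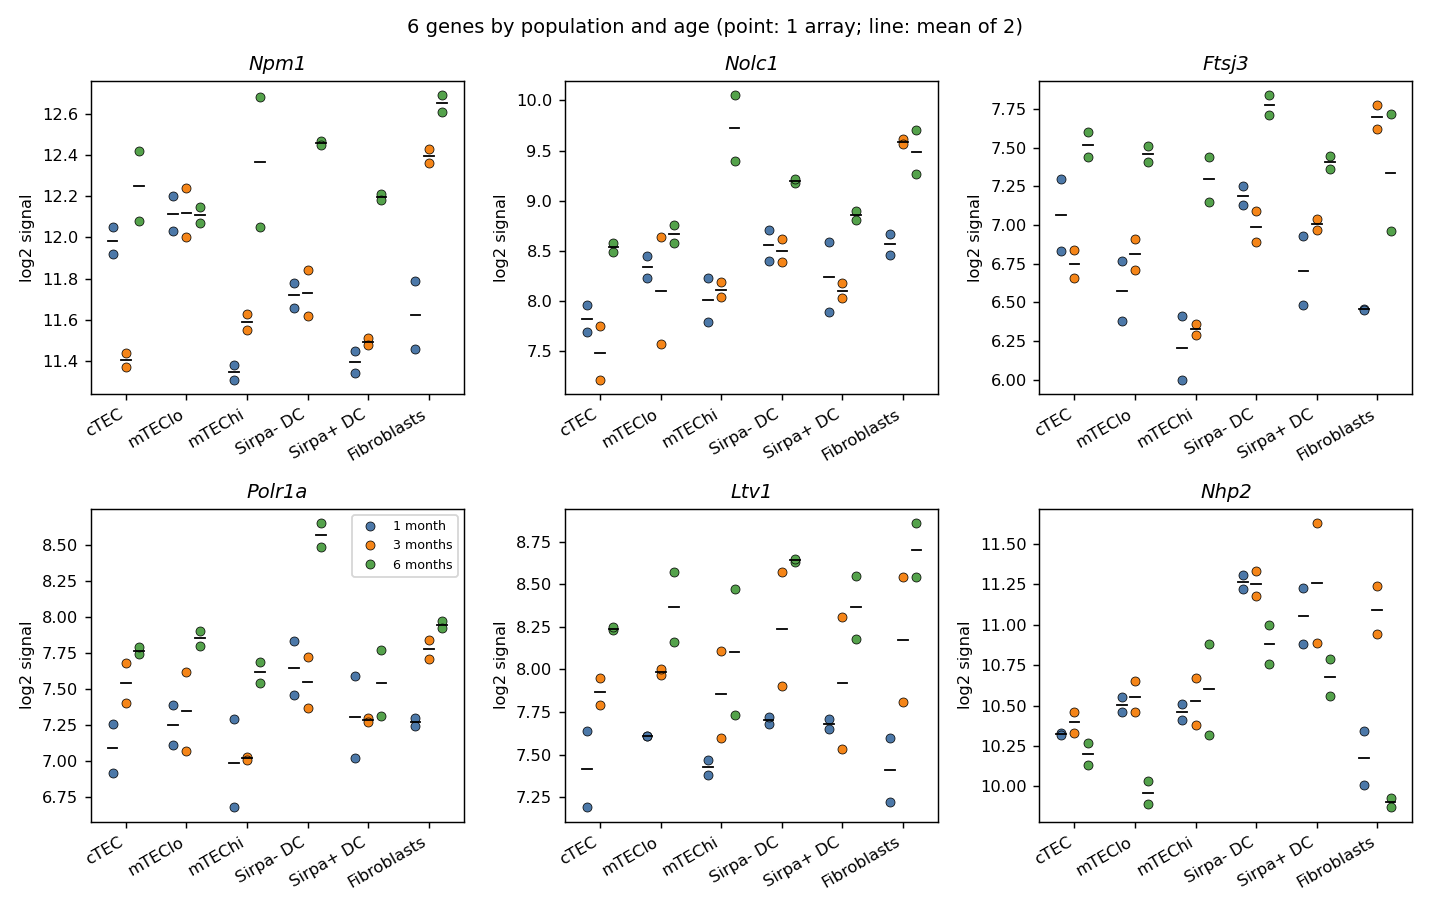
Points give the log2 signal of Npm1, Nolc1, Ftsj3, Polr1a, Ltv1 and Nhp2 in each of the 36 arrays by population and age, and lines the mean of 2 arrays. The 6-month arrays of Ltv1 lie above all its 1-month arrays, those of Npm1 are level with 1 month in mTEClo, and within fibroblasts the 3-month arrays of Nhp2 are the highest.

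Between 3 and 6 months 9 members rose in the mean of the 6 populations (15.5%), led by Nolc1 (0.76), Npm1 (0.55) and Ftsj3 (0.53). In the same mean 3 fell (16%), namely Nhp2 (-0.48), Gar1 (-0.47) and Polr1b (-0.41). Of 11 other probe sets of the called members 6 had the same sign, and these 6 were called. Those of Nolc1 gave -0.11 and 0.88, those of Polr1a -0.17 and -0.04, that of Noc2l -0.31 and that of Nhp2 0.02. After quantile normalization the balance turned, with 4 members higher and 9 lower. The share of higher genes among all called genes fell as well under this scaling, as given below. The turn was thus not particular to the members. From 1 to 3 months 5 rose (1.84%), namely Ltv1 (0.47), Ddx21 (0.37), Dkc1 (0.30), Nop14 (0.30) and Fbl (0.28). With the 3′ minus 5′ covariate this last count was 0, and with the thymocyte covariate 3. Over fits that left out 1 array it ranged from 1, without the second fibroblast array at 3 months, to 5. It was 2 without the second cTEC array at 3 months, the second array of mTEChi or Sirpa- DC at 1 month or the first of Sirpa+ DC at 1 month. It was 3 without either mTEClo array at 1 month, the second at 3 months, either mTEChi array at 3 months, the first of Sirpa- DC at 3 months or the first of fibroblasts at 1 month. Of 4 other probe sets of the members called from 1 to 3 months, 3 had the same sign and 1, of Fbl (0.38), was called. Those of Dkc1 gave 0.24 and -0.06 and that of Ddx21 gave 0.08.

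Without the fibroblasts, in the mean of the other 5 populations (a comparison added after seeing the data), 11 members were higher at 6 than at 1 month (11.5% of all genes) and 2 lower (14.4%). Nolc1 (0.80), Ltv1 (0.78), Ftsj3 (0.74), Polr1a (0.61) and Npm1 (0.56) led. Below them were Ddx21 (0.38), Wdr43 (0.36), Nop14 (0.34), Nop56 (0.33), Ncl (0.29) and Nop58 (0.27). Gnl3 (-0.30) and Nhp2 (-0.26) were lower. Of 12 other probe sets of the called members 10 had the same sign and 5 were called. Those of Polr1a gave 0.07 and 0.09, that of Wdr43 -0.05 and that of Nhp2 0.25, none of them called. Later, from 3 to 6 months, 9 were higher (12.4%) and 2 lower (9.95%), the latter being Nhp2 and Gar1 with -0.33 each. After quantile normalization these counts were 9 and 4 from 1 to 6 months, and 8 and 5 from 3 to 6 months. The percentages of all genes in this paragraph are as deposited and are no background for these counts. Among all called genes the share that was higher fell in both steps under this scaling, as given below. From 3 to 6 months Nolc1 (0.94) and Ftsj3 (0.71) were the largest as deposited, and all 10 of the 6-month arrays of Ftsj3 lay above all 10 at 3 months. In that step 7 of 11 other probe sets of the called members had the same sign, and 6 were called. From 1 to 3 months none was called by limma (3.82% of all genes, 5 members at an unadjusted p under 0.05). Of mitosis genes 20 of 29 were lower in this mean at 6 than at 1 month, and of thymocyte markers 4 of 13.

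Ribosomal protein genes were higher at 6 than at 1 month in 28 of 42 in the mean of 6 populations (median 0.32) and in 23 of 42 without fibroblasts. In the large subunit assembly list 13 of 35 rose and 3 fell, with Nsa2 (1.34), Rsl1d1 (1.14), Las1l (0.74) and Ddx27 (0.54) the largest. Of mitosis genes 14 of 29 fell, and of fibroblast markers 4 of 9. In the mean of 6, 40.7% of all called genes were higher at 6 than at 1 month as deposited and 30.3% after quantile normalization. The shares were 29.1% and 44% from 1 to 3 months and 49.2% and 29.1% from 3 to 6, and in the mean of 5 they were 44.3% and 31.3% from 1 to 6, and 55.5% and 31.5% from 3 to 6 months. For fibroblasts from 3 to 6 months they were 42.8% and 28.9%. Between 3 and 6 months Nop56 (0.23), Nop58 (0.12), Ltv1 (0.29), Noc2l (0.15) and Ncl (0.09) were not called in the mean of 6 after quantile normalization.

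Whether the change with age differed between populations was tested with a moderated F-test. It called 10 members (15.7% of all genes), namely Ncl (adjusted p 0.00354), Npm1 (0.0053), Fbl (0.0073), Dkc1 (0.0189), Nop56 (0.0196), Nop58 (0.0219), Ftsj3 (0.0229), Polr1b (0.0246), Nolc1 (0.0451) and Rrs1 (0.0482). The count was 5 without the first fibroblast array at 1 or at 3 months and 3 without the second at 3 months. The change in the mean of the epithelial populations was not called as different from that in the DC for any member, from 1 to 3 months (0.241% of all genes) or from 1 to 6 months (1.91%). At an unadjusted p under 0.05 there were 0 and 1 members in limma, which does not show that these populations changed alike. From 1 to 3 months 34.3% of all calls of this difference were positive as deposited, 44.9% after quantile normalization and 48.7% with equal array medians.

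The transcription factors of the Myc family, known regulators of ribosome biogenesis, were read on the same arrays. Myc averaged 9.22 in fibroblasts, 8.68 in cTEC, 8.50 in mTEClo, 8.47 in mTEChi, 7.98 in Sirpa+ DC and 7.86 in Sirpa- DC. In fibroblasts it went from 8.62 at 1 month to 9.27 at 3 and 9.77 at 6 months, a difference of 0.65 ± 0.25 (adjusted p 0.0694) and then 1.15 ± 0.25 (adjusted p 0.00104) against 1 month. In the mean of 6 populations Myc differed by 0.24 ± 0.10 from 1 to 6 months (adjusted p 0.0728). Mycl averaged 10.78 in Sirpa- DC, 3.14 ± 0.17 above the mean of the others, and 5.43 in fibroblasts. It fell by 0.97 on the log2 scale in the mean of 6 from 1 to 6 months (adjusted p 4.06e-05) and by 1.82 in mTEChi (adjusted p 0.00351), where 8 members were higher. Mycn (-0.12) and Max (-0.05) were not called in that mean. Among the partners of the Myc network, Mxd3 rose by 1.38 and Mxd4 fell by 1.01 on the log2 scale in fibroblasts from 1 to 3 months.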

How the data were processed

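RNA of 36 thymic samples was hybridised to Affymetrix mouse arrays. Per the series' design text the authors normalised them with Gene Expression Commons. GCRMA is named in the submitters' processing notes, without a version. Each deposited value is the log2 signal of 1 probe set, and the base of the logarithm, not stated there, was inferred from how large the values are. Normalization of this kind assumes that most genes do not change.

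Of 45101 probe sets, 64 controls, 932 with several symbols and 9160 without one were left out. Each of 18193 genes was read from its brightest probe set, and 14495 above the pooled median (5.66) in at least 2 arrays were tested. Groups came from the labels. A model with 18 group means and 18 residual degrees of freedom was fitted with limma 3.58.1 (R 4.3.3), with an intensity trend, two-sided tests and Benjamini-Hochberg adjustment over all genes tested. The script was tested on simulated data. Python 3.11.15 and matplotlib 3.10.9 drew the figures.

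The members, lists and comparisons were chosen with earlier results of these data known. All 33 members were named. Array values are given for at most 3 called members of largest difference per comparison and, beyond the rule, for others chosen after their values were seen. Up to 4 called genes were named per further list, and the Myc family always. Alternatives covered scaling, filter, probe sets, trend, samples fitted, replicate block, covariates, fold threshold, and leaving out each array or the fibroblasts. The comparisons of fibroblasts with the other 5 populations, of mTEChi with mTEClo over age and of the mean without fibroblasts were added after seeing the data, as were fits of the members' further probe sets.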

Additional observations from a re-analysis of the deposited data

Results flagged for a closer look

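Each member and the mean of the members was examined in the 6 arrays of each population, 204 sets in all, for an array far from the other 5. There were 8 such arrays, and chance flags about 1 in 20 groups. In mTEClo the second 3-month array read 7.81 for Nop56 (next 8.51) and the first 3-month array 8.53 for Pes1 (next 8.09). In mTEChi the second 6-month array was highest for Wdr43 with 9.96 (next 9.29) and for Nop2 with 8.26 (next 7.73). The first 3-month array of mTEChi was highest for Nop14 with 6.84 (next 6.32), and its second 3-month array was lowest for Noc3l with 7.09 (next 7.31). In Sirpa+ DC the first 1-month array was lowest for Tsr1 with 9.66 (next 9.87), and the first 3-month array was highest for Wdr12 with 8.61 (next 8.28).

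Changes with age that differed between populations by the F-test had adjusted p-values of 0.00354 for Ncl, 0.0053 for Npm1, 0.0073 for Fbl, 0.0189 for Dkc1, 0.0196 for Nop56, 0.0219 for Nop58, 0.0229 for Ftsj3, 0.0246 for Polr1b, 0.0451 for Nolc1 and 0.0482 for Rrs1.

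The change in fibroblasts minus the mean change of the other 5 populations passed the test from 1 to 3 months for Dkc1 (1.34), Ncl (1.31), Fbl (1.30), Gar1 (1.24), Ftsj3 (1.22), Polr1b (1.20), Nop56 (1.19), Nolc1 (1.15), Rrs1 (1.14), Nop58 (1.03), Noc2l (0.99), Nhp2 (0.84), Npm1 (0.81), Ddx21 (0.76) and Gnl3 (0.72). From 1 to 6 months it passed for Wdr12 (1.06), Ncl (0.79), Nop56 (0.75), Dkc1 (0.62), Fbl (0.59) and Nob1 (0.57). From 3 to 6 months it passed for Polr1b (-1.10), Ftsj3 (-1.08), Nhp2 (-0.85), Rrs1 (-0.78), Tsr1 (-0.77) and Fbl (-0.71). The change in mTEChi minus that in mTEClo from 1 to 6 months passed for Nolc1 (1.39), Nop56 (1.27), Mybbp1a (1.04) and Npm1 (1.03). Another probe set of Nolc1 gave -0.67 there.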

How the results depend on the processing

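Of 107 calls of single members, the direction was kept under all alternatives tried except averaging a gene's probe sets, which reversed 5: Pes1 in fibroblasts from 1 to 6 months (-0.07) and, in the mean of 6 populations, Nhp2 (0.08), Pes1 (-0.07) and Noc2l (-0.09) from 1 to 6 and Noc2l (-0.03) from 3 to 6 months. The direction and the side of the threshold were kept by 103 calls with equal array medians, 103 without the filter, 104 without the trend, 104 with the replicate block, 90 after quantile normalization, 87 with all probe sets, 81 with the thymocyte covariate, 78 with the 3′ minus 5′ covariate, 50 of 59 without the fibroblasts and 49 of 105 in fits of only the groups compared, and in 3583 of 3852 cases when 1 array was left out. Where not stated otherwise, the cause of a change was not tested.

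Counts of called members moved as follows, with the main count in parentheses. With the 3′ minus 5′ covariate they were 0 (1) in cTEC from 1 to 3 months, 1 (0) in cTEC, 0 (2) in mTEClo, 2 (1) in Sirpa- DC and 10 (17) in fibroblasts from 1 to 6, 1 (0) in Sirpa- DC from 3 to 6, 0 (5) and 11 (17) in the mean of 6 from 1 to 3 and 1 to 6, 2 (4) for mTEChi minus mTEClo, and 8 (13) in the mean of 5 from 1 to 6. With the thymocyte covariate they were 0 (1) and 0 (3) in cTEC from 1 to 3 and 3 to 6, 6 (17) in fibroblasts from 1 to 6, 3 (5) in the mean of 6 from 1 to 3, 7 (15) and 0 (6) for fibroblasts minus the others from 1 to 3 and 1 to 6, and 3 (10) in the F-test.

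A 2-fold minimum, which can only remove calls, left from 1 to 3 months 0 in cTEC, 8 in fibroblasts and 0 in the mean of 6, from 1 to 6 months 0 in mTEClo, 3 in mTEChi, 0 in each DC population, 5 in fibroblasts, 0 in the mean of 6 and 0 in the mean of 5, and from 3 to 6 months 1 in cTEC, 2 in mTEChi, 0 in Sirpa+ DC, 3 in fibroblasts, 0 in the mean of 6 and 0 in the mean of 5. For fibroblasts minus the others it left 1 from 1 to 6 and 2 from 3 to 6. With no minimum fold between populations the counts were 17 in cTEC, 11 in mTEClo, 18 in mTEChi, 20 in Sirpa- DC, 14 in Sirpa+ DC, 15 in fibroblasts, 11 for mTEChi against mTEClo, 14 for the DC pair and 24 for epithelial cells against DC.

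Quantile normalization gave 0 (1) for fibroblasts against the others, 0 (1) in cTEC from 1 to 3, 1 (3) in cTEC from 3 to 6, 4 (8) in mTEChi from 1 to 6, 8 (5) in the mean of 6 and 3 (0) in the mean of 5 from 1 to 3, 11 (6) for fibroblasts minus the others from 3 to 6, and 2 (4) for mTEChi minus mTEClo. Equal medians gave 0 (1) for fibroblasts against the others, 0 (1) in cTEC from 1 to 3, 2 (1) in Sirpa- DC from 1 to 6 and 1 (0) from 3 to 6. The mean of all probe sets gave 0 (1) for Sirpa- DC against the others, 0 (1) for epithelial cells against DC, 0 (1) in cTEC from 1 to 3, 3 (1) and 2 (1) in Sirpa+ DC from 1 to 6 and 3 to 6, and 1 (0) in Sirpa- DC from 3 to 6. Without the trend there were 0 (1) in cTEC from 1 to 3 and 0 (1) in Sirpa+ DC from 3 to 6. Without the fibroblast arrays 1 (5) was called in the mean of the populations from 1 to 3.

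Fits of only the groups compared, with fewer arrays, gave from 1 to 3 months 0 (1) in cTEC, 10 (20) in fibroblasts and 1 (0) in the mean of 5, from 1 to 6 months 5 (2) in mTEClo, 0 (8) in mTEChi, 6 (1) in Sirpa- DC, 2 (1) in Sirpa+ DC, 0 (17) in fibroblasts and 0 (4) for mTEChi minus mTEClo, and from 3 to 6 months 1 (3) in cTEC, 0 (6) in mTEChi, 1 (0) in Sirpa- DC, 0 (1) in Sirpa+ DC and 0 (10) in fibroblasts. Correlations of the deviations of same-numbered arrays exceeded 0.1 in 4 of 15 pairs of populations at 1 month (-0.068 to 0.164), 10 of 15 at 3 months (0 to 0.418) and 3 of 15 at 6 months (-0.063 to 0.189). At 3 months same-numbered arrays thus tended to deviate together. As not every pair exceeded 0.1, the numbers were not taken to pair the samples throughout, and the labels do not settle it. With the replicate block counts were 1 (0) in cTEC and 3 (1) in Sirpa- DC from 1 to 6, 1 (0) in Sirpa- DC from 3 to 6 and 1 (0) in the mean of 5 from 1 to 3, and 3 of 107 calls were lost.

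Leaving out 1 array at a time gave in fibroblasts 10 to 22 calls from 1 to 3, 5 to 17 from 1 to 6 and 3 to 11 from 3 to 6 months. For fibroblasts minus the others it gave 9 to 17, 0 to 7 and 0 to 10, and against the others 0 to 1. In mTEChi it gave 2 to 10 from 1 to 6 and 1 to 9 from 3 to 6, and 0 to 7 for mTEChi minus mTEClo. In cTEC it gave 0 to 1 and 0 to 3 from 1 to 3 and 3 to 6, in mTEClo 0 to 1 and 0 to 2 from 1 to 3 and 1 to 6, in Sirpa- DC 0 to 2 from 1 to 6 and from 3 to 6, and in Sirpa+ DC 0 to 1 for each. It gave 0 to 1 for epithelial cells minus DC from 1 to 6, 1 to 5 in the mean of 6 and 0 to 1 in the mean of 5 from 1 to 3, and 3 to 13 in the F-test. The array left alone in a group is assumed to vary like the others. The mean of 5 has no separate fit without fibroblasts, the F-test was not run without fibroblasts or in fewer groups, and dim signal limits Rrp12. Counts of 0 became 1 in mTEClo from 1 to 3 months without its first array at 3 months, and for epithelial cells minus DC without the first mTEChi array at 6 months. They became 1 or 2 in Sirpa- DC from 3 to 6 months in 12 of the 36 fits, and 1 in the mean of 5 from 1 to 3 months in 5.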
